A study of Mus musculus with 90 samples.

Results

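The genes described here are 38 cell cycle and DNA replication genes, taken by name from the 32697 gene rows of each of 90 RNA-seq libraries. They include 8 replication genes (Mcm2 to Mcm7, Pcna and Rrm2) and 25 mitosis genes. The other 5, called transition genes here, are the cyclins Ccne1 and Ccna2, the transcription factors E2f1 and Foxm1, and Tyms of nucleotide synthesis. All 38 were taken by name, and the set was put together with earlier results of these data known. The libraries came from brown adipose tissue (BAT), inguinal white adipose tissue (iWAT), gastrocnemius muscle and hypothalamus of male, homozygous mice of 4 genotypes: UCP1 KO, the UCP1/FGF21 double knockout (dKO), FGF21 KO and wild type (WT). UCP1 is the uncoupling protein through which brown fat makes heat, and FGF21 is a hormone released by liver and fat. The dKO is named once in the series text with FGF12 as its second gene, and the sample labels give the pair as UCP1 and FGF21. All mice, WT included, were raised at 30 °C from birth. When 10 to 12 weeks old they went into the cold, first 12 days at 18 °C and next 3 weeks at 5 °C, and food was taken away 2 to 3 h before death. The knockouts are whole-body by the labels, which do not say which part of either gene was removed.

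A cell that divides passes through G1, copies its DNA in S phase and separates the copies in mitosis. Cyclin E (Ccne1) and the E2F factors open S phase, the 6 MCM proteins form the helicase that unwinds DNA, PCNA clamps the polymerase to its template, and ribonucleotide reductase (Rrm2) and thymidylate synthase (Tyms) supply the nucleotides. The mitotic genes are switched on later, largely through FOXM1 and B-MYB, and the DREAM complex represses them in cells outside the cycle. They cover the kinase CDK1 with its B cyclins, the Aurora and Polo kinases, the kinetochore, the checkpoint and the spindle. MCM proteins and PCNA are also present in cells that are not dividing, whereas Mki67, Top2a and Cdk1 transcripts are low outside the cycle. In mature fat and muscle the dividing cells are mostly precursors, endothelial cells and leukocytes.

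The proximal promoters of the genes differ in the short elements that bind these factors, and 4 are printed as examples from the replication and mitosis groups that are compared throughout. Each is the 250 bases before the RefSeq start site on build GRCm38.p6: Cdk1 (chr10:69352913-69353162, minus strand), Plk1 (chr7:122159185-122159434, plus strand), Mcm5 (chr8:75109259-75109508, plus strand) and Mcm6 (chr1:128359706-128359955, minus strand). Capitals mark matches on either strand to the cell cycle homology region (CHR, TTTGAA or TTTAAA), the E2F element (TTTCCCGC, TTTCGCGC, TTTGCCGC or TTTGGCGC) and the CCAAT box (CCAAT).
Cdk1: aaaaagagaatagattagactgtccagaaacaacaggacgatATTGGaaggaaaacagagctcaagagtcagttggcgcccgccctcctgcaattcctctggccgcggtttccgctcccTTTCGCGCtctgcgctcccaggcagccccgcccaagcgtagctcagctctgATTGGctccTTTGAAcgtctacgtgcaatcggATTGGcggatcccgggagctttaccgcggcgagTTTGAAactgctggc
Plk1: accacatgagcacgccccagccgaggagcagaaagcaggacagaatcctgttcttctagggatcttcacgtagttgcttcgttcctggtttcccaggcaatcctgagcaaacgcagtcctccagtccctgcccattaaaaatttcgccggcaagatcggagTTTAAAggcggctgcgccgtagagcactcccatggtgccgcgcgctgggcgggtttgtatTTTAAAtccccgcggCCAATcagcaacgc
Mcm5: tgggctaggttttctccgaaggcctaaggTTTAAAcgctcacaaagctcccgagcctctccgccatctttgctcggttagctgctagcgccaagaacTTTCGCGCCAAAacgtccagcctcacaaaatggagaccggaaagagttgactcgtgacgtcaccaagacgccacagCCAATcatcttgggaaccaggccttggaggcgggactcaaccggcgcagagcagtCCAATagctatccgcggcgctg
Mcm6: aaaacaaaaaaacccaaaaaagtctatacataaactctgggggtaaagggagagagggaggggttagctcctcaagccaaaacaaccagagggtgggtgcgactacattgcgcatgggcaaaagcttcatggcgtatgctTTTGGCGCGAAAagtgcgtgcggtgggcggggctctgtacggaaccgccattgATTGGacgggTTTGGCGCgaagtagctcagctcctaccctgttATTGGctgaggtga
Cdk1 held 2 CHR, 1 E2F and 3 CCAAT matches in these bases, and Plk1 held 2 CHR, 0 E2F and 1 CCAAT match. Mcm5 held 1 CHR, 2 E2F and 2 CCAAT matches, and Mcm6 held 0 CHR, 3 E2F and 2 CCAAT matches; adjoining E2F matches in both MCM genes overlap and run together in capitals. RefSeq promoters, taken from 250 bases before to 50 after the start, were found for 32 of the 38 genes. The CHR was present in 18 of 22 mitosis genes (81.8%) and 3 of 7 replication genes (42.9%), against 30.6% of 27025 genes in the table. The E2F element was present in 1 of 22 mitosis genes (4.55%), which is the Cdk1 printed here, and 4 of 7 replication genes (57.1%), against 2.6% of all genes. The CCAAT box was present in 16 mitosis genes (72.7%) and all 7 replication genes, against 41.1% of all genes. In the member promoters 1 pair of matches of different elements and 3 pairs of the same element overlapped. These are letter matches and not measured binding.

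Libraries held 18067899 to 69886357 counts, and groups held 5 or 6 libraries. The labels do not say that each library came from a different mouse, so p-values measure the spread between libraries. In BAT, Ucp1 averaged 1140 ± 192 CPM in UCP1 KO, 1350 ± 143 CPM in dKO, 11200 ± 397 CPM in FGF21 KO and 8520 ± 1350 CPM in WT (SD, n = 6, 6, 5 and 5; CPM is the read count scaled to library size with TMM factors). In iWAT it averaged 1420 ± 278 CPM in the libraries labelled UCP1 KO and 516 ± 406 CPM in WT (SD, n = 6 each), so the whole-gene count does not check the genotype there. Fgf21 had 605 to 2137 counts in UCP1 KO, 0 to 1 in dKO, 0 to 13 in FGF21 KO and 8 to 67 in WT libraries of BAT. In iWAT it had 302 to 1235 counts in UCP1 KO, 0 to 4 in dKO, 0 to 1 in FGF21 KO and 9 to 26 in WT. It had at most 4 counts in any muscle or hypothalamus library and checks nothing there. Adipoq, Acta1 and Oxt, defining genes of fat, muscle and hypothalamus, were detected in their own tissue in every group. Some libraries held RNA of a neighbouring tissue: 7 of 22 BAT libraries were high in muscle fibre genes, 12 of 23 iWAT libraries in lymphocyte genes and 6 of 22 hypothalamus libraries in choroid plexus genes. In all of these bulk samples, more cells of a type and more RNA per cell cannot be told apart.

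In BAT all 38 genes were higher in UCP1 KO than in WT, the mitosis genes by the most. Their median log2 fold change was 1.83 over the 25 mitosis genes, 1.32 over the 5 transition genes and 0.82 over the 8 replication genes, where the median of all 16032 tested genes was -0.02. A gene is called changed where edgeR's quasi-likelihood test gave a Benjamini-Hochberg adjusted p under 0.05 over all genes tested in that tissue. The 38 of 38 calls compare with 30.2% of all genes called higher and 60.1% called in either direction. Macrophage genes moved with them: the summed level of 15 macrophage genes, led by Lyz2, C1qb and C1qa and with none at 0, was 709 to 1080 CPM in UCP1 KO, 488 to 724 CPM in dKO, 177 to 357 CPM in FGF21 KO and 179 to 239 CPM in WT. Of these 15, 13 were called higher in UCP1 KO than in WT, and 12 of 15 lymphocyte genes were called higher, with sums of 21.9 to 31.2 CPM in UCP1 KO, 14.1 to 26.2 CPM in dKO, 6.61 to 12.4 CPM in FGF21 KO and 6.7 to 14.3 CPM in WT. Of 10 endothelial genes, 7 were called lower. The part of these cells in the results was not tested.

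Mki67 (chr7:135689784-135716361), the gene of the Ki-67 proliferation antigen, ranged over 5.93, 9.30 and 13.0 CPM (lowest, median, highest) in UCP1 KO and 7.06, 8.45 and 10.1 CPM in dKO. It was at 2.15, 2.38, 1.37, 3.09 and 3.92 CPM in the FGF21 KO libraries, and at 2.30, 1.62, 1.46, 2.66 and 1.13 CPM in the WT libraries. Every UCP1 KO and dKO library lay above every FGF21 KO and WT library, and the UCP1 KO and dKO ranges overlapped. The log2 fold change of UCP1 KO against WT was 2.32 ± 0.25 (SE; adjusted p = 8.96e-08), and that of dKO against FGF21 KO 1.70 ± 0.25 (adjusted p = 5.1e-06). Cdk1, the kinase that starts mitosis, ranged over 2.65, 3.26 and 4.35 CPM in UCP1 KO and 2.33, 3.06 and 3.53 CPM in dKO. Its FGF21 KO libraries were at 0.700, 0.705, 0.437, 0.865 and 1.02 CPM and its WT libraries at 0.542, 0.557, 0.407, 0.976 and 0.419 CPM. The UCP1 KO and dKO libraries again lay above all others, with log2 fold changes of 2.56 ± 0.22 (adjusted p = 2.73e-09) for UCP1 KO against WT and 2.01 ± 0.22 (adjusted p = 9.68e-08) for dKO against FGF21 KO.

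**Figure D1:**
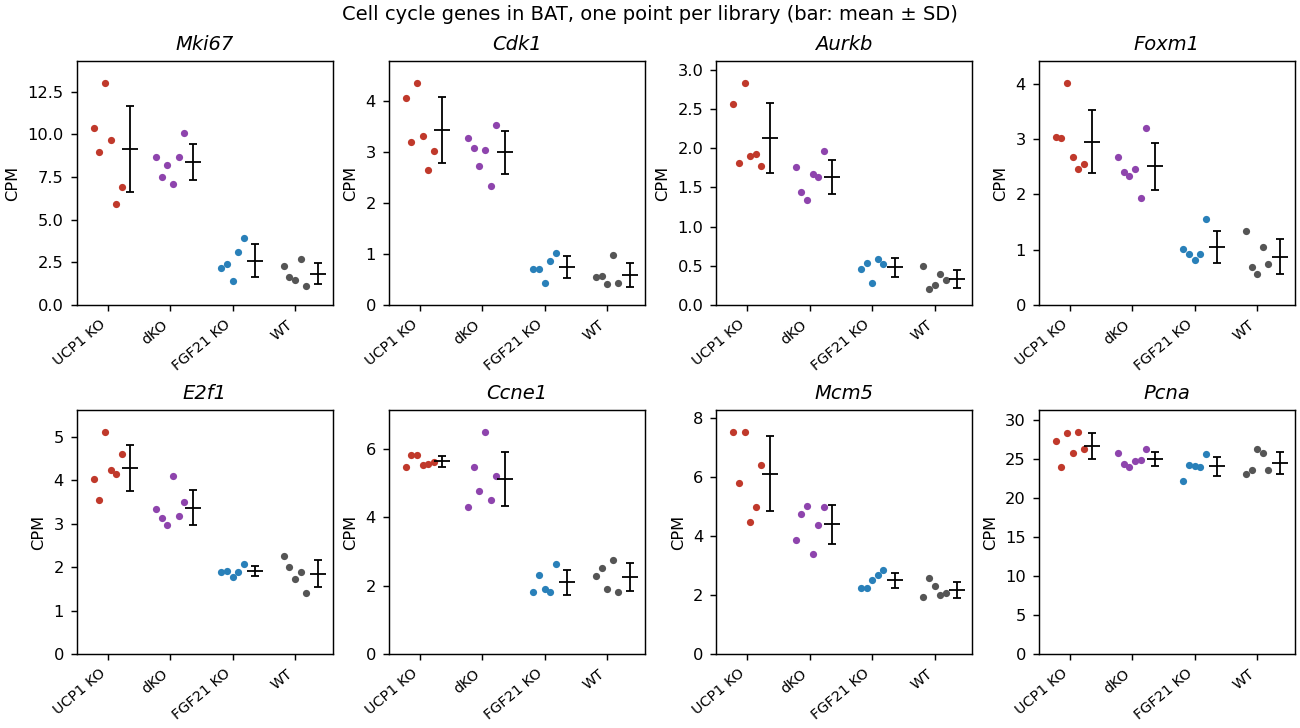
CPM of selected cell cycle genes in BAT, with 1 point per library and a bar for the mean ± SD of each genotype, in the order UCP1 KO, dKO, FGF21 KO and WT. Mki67 lies at 5.93 to 13.0 CPM in UCP1 KO and 1.13 to 2.66 CPM in WT, while the Pcna ranges overlap.

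The largest change of UCP1 KO against WT was in Aurkb, the kinase of the chromosomal passenger complex that corrects spindle attachment. Aurkb ranged over 1.77, 1.92 and 2.83 CPM in UCP1 KO and 1.34, 1.65 and 1.96 CPM in dKO, against 0.459, 0.535, 0.281, 0.587 and 0.527 CPM in FGF21 KO and 0.491, 0.203, 0.257, 0.390 and 0.320 CPM in WT. The log2 fold change was 2.68 ± 0.22 (adjusted p = 8.8e-10) for UCP1 KO against WT and 1.77 ± 0.21 (adjusted p = 3.18e-07) for dKO against FGF21 KO, with no overlap in either pair. Bub1, a spindle checkpoint kinase, ranged over 0.616, 0.892 and 1.55 CPM in UCP1 KO, against 0.181, 0.101, 0.0856, 0.244 and 0.197 CPM in WT. It followed with a log2 fold change of 2.67 ± 0.28 (adjusted p = 3.41e-08), and Melk, a kinase of dividing cells, with 2.62 ± 0.37 (adjusted p = 2.81e-06). Top2a, the topoisomerase that untangles sister chromatids, ranged over 5.45, 7.37 and 11.8 CPM in UCP1 KO, against 2.30, 0.911, 0.920, 2.46 and 1.63 CPM in WT. Its log2 fold change was 2.31 ± 0.28 (adjusted p = 3.97e-07). Ccnb1, the cyclin that activates CDK1, rose by 2.11 ± 0.31 (log2; adjusted p = 4.42e-06) to 1.80, 2.08 and 3.47 CPM in UCP1 KO, against 0.672, 0.430, 0.257, 0.976 and 0.419 CPM in WT.

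Most other mitosis genes changed by less. Plk1, the Polo kinase, ranged over 0.985, 1.20 and 2.25 CPM in UCP1 KO, against 0.465, 0.405, 0.621, 0.659 and 0.518 CPM in WT, a log2 fold change of 1.36 ± 0.23 (adjusted p = 3.29e-05) without overlap. Aurka, the centrosomal Aurora kinase, changed the least of the 25, by 0.61 ± 0.19 (log2; adjusted p = 0.00749). It ranged over 1.59, 1.86 and 2.34 CPM in UCP1 KO, against 0.878, 0.987, 1.20, 1.54 and 1.68 CPM in WT, and here the groups overlapped. The kinetochore genes Ndc80, Nuf2, Cenpe and Cenpf had log2 fold changes of 1.61 to 2.13. The checkpoint kinases Bub1b and Ttk stood at 1.04 and 1.46, and the kinesins Kif11, Kif20a and Kif2c at 0.81 to 1.66. Spindle assembly and midzone genes Tpx2, Nusap1 and Prc1 lay at 1.78 to 1.94, the anaphase-promoting genes Cdc20 and Ube2c at 1.57 and 1.89, and the passenger complex gene Birc5 (survivin) and the cyclin Ccnb2 at 2.45 and 1.64.

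The replication genes moved less and unevenly. Mcm5 ranged over 4.47, 6.09 and 7.50 CPM in UCP1 KO and 3.37, 4.56 and 5.01 CPM in dKO, against 2.24, 2.24, 2.50, 2.66 and 2.83 CPM in FGF21 KO and 1.94, 2.58, 2.29, 1.98 and 2.05 CPM in WT. Its log2 fold change was 1.49 ± 0.14 (adjusted p = 9.74e-09) for UCP1 KO against WT and 0.82 ± 0.14 (adjusted p = 3.67e-05) for dKO against FGF21 KO, with the groups of each pair apart. Rrm2, the regulated subunit of ribonucleotide reductase, ranged over 2.58, 4.17 and 5.67 CPM in UCP1 KO, against 1.45, 1.04, 1.07, 1.90 and 1.77 CPM in WT, a log2 fold change of 1.50 ± 0.21 (adjusted p = 2.23e-06). Mcm2 changed by 0.95 ± 0.12 (log2; adjusted p = 2.88e-07), with 5.31, 7.36 and 8.55 CPM in UCP1 KO, against 3.67, 3.04, 3.10, 4.17 and 4.61 CPM in WT. Both genes were separate between these genotypes. Mcm6, Mcm3 and Mcm7 had log2 fold changes of 1.19, 0.69 and 0.59. The other helicase subunit, Mcm4, changed by 0.35 ± 0.09 (log2; adjusted p = 0.00182), at 7.28, 8.62 and 9.32 CPM in UCP1 KO and 5.81, 6.33, 7.53, 6.64 and 6.63 CPM in WT, with overlap.

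Pcna (chr2:132249162-132253314) was the most abundant member per length and moved the least. It ranged over 24.0, 26.8 and 28.4 CPM in UCP1 KO and 24.0, 24.7 and 26.2 CPM in dKO, against 22.2, 24.2, 24.1, 24.0 and 25.6 CPM in FGF21 KO and 23.1, 23.6, 26.2, 25.8 and 23.6 CPM in WT. All 4 genotypes overlapped, and the log2 fold change of UCP1 KO against WT was 0.12 ± 0.05 (adjusted p = 0.0383). This call was lost when the fit held only those 2 genotypes (adjusted p = 0.0842) and when the libraries high in muscle RNA were left out (0.09 ± 0.07, adjusted p = 0.249). Per kilobase of exon, Pcna had 17.6 ± 1.11 CPM/kb in UCP1 KO and 16.1 ± 0.929 CPM/kb in WT, Mcm7 had 6.53 CPM/kb in UCP1 KO and 4.33 in WT, Mki67 had 0.908 in UCP1 KO and 0.182 in WT, and Cdk1 had 0.769 in UCP1 KO and 0.130 in WT (SD, n = 6 and 5).

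Among the transition genes, Ccne1 (chr7:38097984-38107534), cyclin E1, had the narrowest spread in UCP1 KO, at 5.46, 5.59 and 5.82 CPM, and ranged over 4.29, 4.98 and 6.48 CPM in dKO. Its FGF21 KO libraries were at 1.81, 2.31, 1.90, 1.82 and 2.64 CPM and its WT libraries at 2.27, 2.51, 1.90, 2.76 and 1.80 CPM. All UCP1 KO and dKO libraries lay above all FGF21 KO and WT libraries. The log2 fold change was 1.32 ± 0.13 (adjusted p = 1.26e-08) for UCP1 KO against WT and 1.29 ± 0.13 (adjusted p = 2.81e-08) for dKO against FGF21 KO. Foxm1, the transcription factor of mitotic genes, ranged over 2.46, 2.84 and 4.01 CPM in UCP1 KO, against 1.34, 0.684, 0.556, 1.05 and 0.739 CPM in WT, a log2 fold change of 1.76 ± 0.21 (adjusted p = 3.02e-07). E2f1, an activator of replication genes, ranged over 3.54, 4.19 and 5.11 CPM in UCP1 KO, against 2.25, 2.00, 1.73, 1.88 and 1.40 CPM in WT, a log2 fold change of 1.21 ± 0.12 (adjusted p = 1.6e-08). Both were separate between the genotypes. Ccna2, the cyclin of S phase and G2, changed by 1.79 and Tyms by 0.64 (log2).

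The second pair, dKO against FGF21 KO, shares no library with the first. Here 35 of 38 genes were higher and 0 lower, with 29.3% of all genes called higher and 57.2% in either direction. The medians were 1.24 for mitosis (24 of 25 called), 1.15 for the transition genes (5 of 5) and 0.55 for replication (6 of 8), where the median of all genes was -0.01. Cdk1 (2.01), Aurkb (1.77), Mki67 (1.70) and Melk (1.64) had the largest called changes, and Mcm3 (0.29), Tyms (0.47), Mcm7 (0.50) and Cdc20 (0.50) the smallest. Not called were Mcm4 (0.05, adjusted p = 0.624), Pcna (0.06, adjusted p = 0.357) and Aurka (0.39, adjusted p = 0.0843). Against WT, the dKO had 35 of 38 genes higher, with 29.7% of all genes called higher and 59.1% in either direction.

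**Figure D2:**
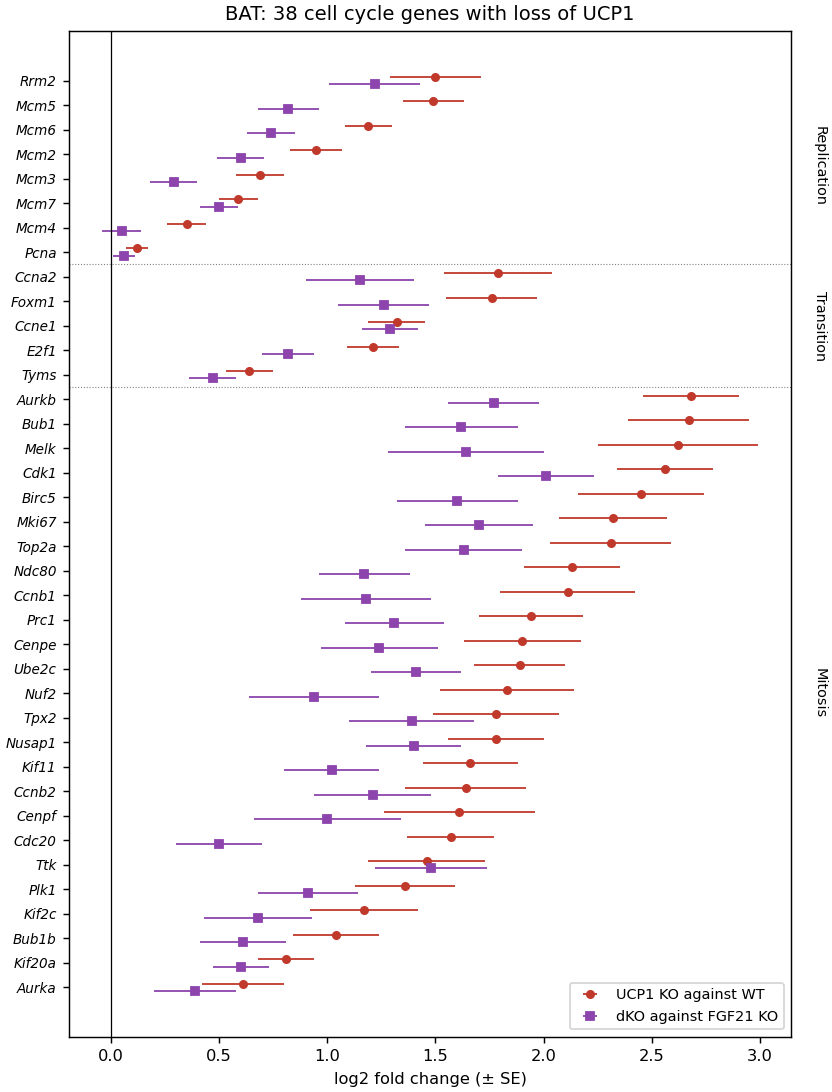
Log2 fold change ± SE of each of the 38 genes in BAT for UCP1 KO against WT and dKO against FGF21 KO, ordered by group. The mitosis genes lie furthest to the right (medians 1.83 and 1.24), and Pcna (0.12 and 0.06) lies next to 0.

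Neither pair that differs in FGF21 alone gave a call by edgeR in BAT. For dKO against UCP1 KO, 0 of 38 were called (1.73% of all genes), 6 had an unadjusted p under 0.05, 35 of 38 estimates were negative and the median was -0.21. DESeq2 called 2 lower, Mcm5 (-0.48 ± 0.14, adjusted p = 0.0168) and E2f1 (-0.35 ± 0.11, adjusted p = 0.0337), out of 4.61% of all genes by that tool, which is about the members' own share. For FGF21 KO against WT, 0 were called (0.025% of all genes) by edgeR and 0 by DESeq2, 7 had an unadjusted p under 0.05, and the median was 0.28. In FGF21 KO the library with the highest mitosis sum, replicate 5 at 33.2 CPM, also had the highest macrophage sum, 357 CPM. The test of whether the effect of UCP1 loss depends on FGF21 called 0 of 38 by edgeR (0% of all genes) and 0 by DESeq2, with 14 at an unadjusted p under 0.05. In this test 37 of 38 estimates were negative, with a median of -0.49.

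The mitosis and replication genes were set against each other, without a test, by the median log2 fold change of the mitosis genes minus that of the replication genes. This difference of medians was 1.01 in BAT for UCP1 KO against WT, 0.69 for dKO against FGF21 KO and -0.01 for dKO against UCP1 KO. As a measure of spread, the mean log2 CPM of mitosis minus replication genes in a library had a standard deviation of 0.22 within a BAT genotype. As sums, the mitosis genes had 47 to 88.9 CPM in UCP1 KO, 53.2 to 67.2 in dKO, 17 to 33.2 in FGF21 KO and 14.4 to 25.8 in WT. The replication genes had 80.5 to 101 CPM in UCP1 KO, 74.5 to 85 in dKO, 54.5 to 69.3 in FGF21 KO and 57.7 to 64.7 in WT. Both sums were higher in every UCP1 KO and dKO library than in any FGF21 KO or WT library.

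Other genes of the cycle in BAT came from lists of the wider pathway. Of 50 further mitosis genes, 46 were higher in UCP1 KO than in WT and 1 lower, with a median log2 fold change of 1.65. They included the microtubule regulator Stmn1 (1.70 ± 0.10, adjusted p = 3.89e-12), the cytokinesis protein Anln (1.78) and the kinesin Kif22 (2.36), while Cenpk of the centromere fell by 0.59 (adjusted p = 0.0149). Of 39 further replication genes, 30 were higher and 2 lower, with a median of 0.56. Thymidine kinase Tk1 (2.84 ± 0.19, adjusted p = 4.68e-11), the chromatin assembly subunit Chaf1b (2.56) and the licensing factor Cdt1 (1.70) rose, whereas Gins4 and Cdc45 of the replicative helicase fell by 0.30 and 0.28. Of 30 genes of G1 entry and CDK inhibition, 15 were higher and 7 lower, with a median of 0.28. The shares of all genes in this comparison are 30.2% higher and 60.1% in either direction. The G1 list lies above both, though closer to them than the other lists. Cyclin D2 (Ccnd2, 2.08 ± 0.13, adjusted p = 3.55e-11), Trp53 (1.09) and the stress gene Gadd45a (2.93) rose, and the pocket protein Rbl2 and the CDK inhibitors Cdkn2d and Cdkn1b fell by 0.99, 0.80 and 0.42. In dKO against FGF21 KO the counts higher and lower were 42 and 1 for mitosis, 28 and 2 for replication, and 12 and 7 for G1. In this pair 29.3% of all genes were higher and 57.2% were called, and the G1 count is near the background.

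The 7 BAT libraries high in muscle fibre genes had a mean log2 CPM of 7.25 to 10.82 over those genes, against 2.0 to 6.67 in the other 15. Without them, 37 of 38 members were called higher in UCP1 KO against WT (27.9% of all genes higher, 55.3% in either direction), 31 in dKO against FGF21 KO (26.7% and 53.1%) and 35 in dKO against WT (27.7% and 54.9%). The second pair lost Mcm3, Bub1b, Kif2c, Cenpf and Nuf2 and gained Aurka.

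In iWAT the libraries split by their lymphocyte RNA, and the split ran through all genotypes. Of 23 libraries, 12 had a mean log2 CPM of 3.27 to 6.61 over 15 lymphocyte genes, and the other 11 had -0.54 to 1.52. The 12 were UCP1 KO replicates 2, 4 and 5, dKO replicates 3, 4 and 5, FGF21 KO replicates 1 and 4, and WT replicates 1 to 4. Summed lymphocyte levels were 185 to 837 CPM in these UCP1 KO libraries, 477 to 876 in dKO, 1160 to 1980 in FGF21 KO and 515 to 1680 in WT, against 15.1 to 42.1 CPM in the other UCP1 KO libraries, 10.5 to 11.3 in dKO, 12.5 to 53.8 in FGF21 KO and 12.3 to 17.1 in WT. Mitosis sums in the 12 libraries were 41.9 to 114 CPM in UCP1 KO, 95.6 to 118 in dKO, 83 to 123 in FGF21 KO and 52.9 to 130 in WT, and overlapped. In the 11 libraries they were 58.2 to 75.2 CPM in UCP1 KO, 55.4 to 72.4 in dKO, 36.1 to 42.5 in FGF21 KO and 29 to 32.7 in WT, with UCP1 KO and dKO above the others. Replication sums in the 12 libraries were 91.7 to 148 CPM in UCP1 KO, 124 to 142 in dKO, 162 to 205 in FGF21 KO and 130 to 195 in WT. In the 11 they were 84.8 to 90.9 CPM in UCP1 KO, 81.5 to 88.2 in dKO, 96 to 107 in FGF21 KO and 91.9 to 101 in WT, with UCP1 KO and dKO below the others.

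**Figure D3:**
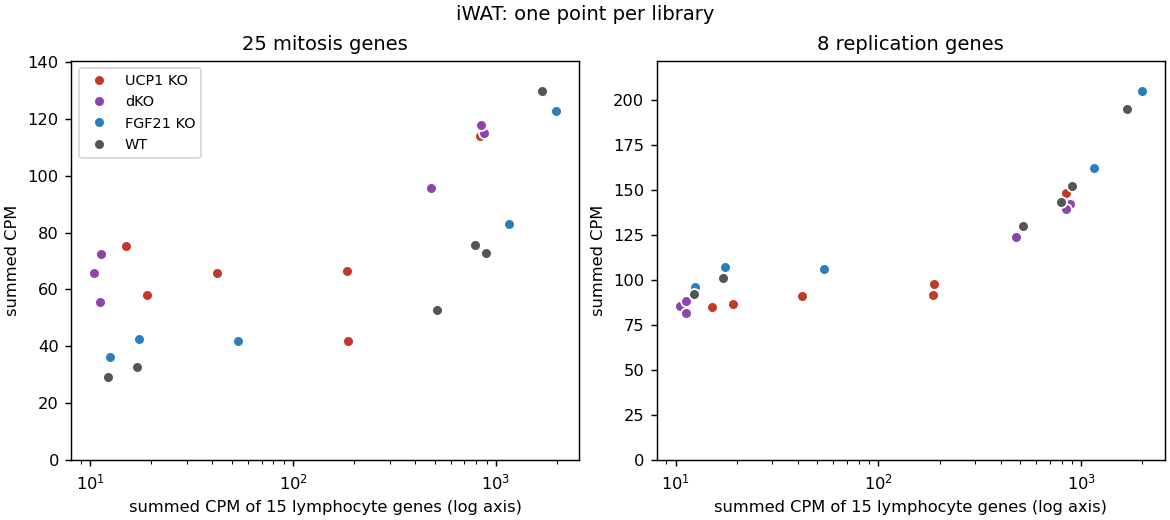
Summed CPM of the mitosis genes and of the replication genes in each iWAT library (vertical axes) against the summed level of 15 lymphocyte genes (horizontal log axis), coloured by genotype. At low lymphocyte levels the mitosis sums of UCP1 KO and dKO (55.4 to 75.2 CPM) lie above those of FGF21 KO and WT (29 to 42.5 CPM).

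With all 23 libraries, few members differed in iWAT. In UCP1 KO against WT 3 of 38 were higher and 3 lower, where 46.3% of all genes were called, 22.3% higher and 24% lower, and the members' share was under that background. Higher were Ccne1 (1.21 ± 0.15, adjusted p = 1.44e-06), Tyms (0.49 ± 0.08, adjusted p = 8.72e-05) and the checkpoint kinase Ttk (0.85 ± 0.34, adjusted p = 0.0449), whose call was lost with no filter on low counts (adjusted p = 0.0597) and with those 2 genotypes alone (adjusted p = 0.0878). Lower were Pcna (-0.37 ± 0.10, adjusted p = 0.00426), Mcm7 (-0.36 ± 0.10, adjusted p = 0.00757) and Mcm4 (-0.75 ± 0.29, adjusted p = 0.0409). The median of all genes was -0.13, that of the mitosis genes 0.06 and that of the replication genes -0.42. In dKO against FGF21 KO 6 were higher and 2 lower (37.3% of all genes, 16.8% higher and 20.5% lower): Cdk1, the cytokinesis kinesin Kif20a, Ttk, the midzone protein Prc1, Ccne1 and Tyms higher, and Mcm7 and Pcna lower. The Pcna call of this pair was lost with no filter (adjusted p = 0.0631), and those of Pcna and Kif20a with the 2 genotypes alone (adjusted p = 0.104 and 0.0587). In dKO against WT, which shares the dKO libraries, 6 were higher and 2 lower (37% of all genes, 19% higher and 18% lower).

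In UCP1 KO against WT, Ccne1, Pcna, Tyms, Mcm4 and Ttk were called with and without the 12 libraries, and Mcm7 only with them. Ccne1 and Pcna are described here. Ccne1 ranged over 7.07, 8.07 and 11.4 CPM in UCP1 KO and 6.01, 6.66 and 7.71 CPM in dKO, against 4.13, 3.50, 2.64, 5.55 and 3.41 CPM in FGF21 KO and 3.33, 3.65 and 4.04 CPM in WT. Every UCP1 KO and dKO library was above every FGF21 KO and WT library, and without the 12 libraries the log2 fold change of UCP1 KO against WT was 1.49 ± 0.21 (adjusted p = 0.000348). Pcna ranged over 27.2, 27.4 and 33.7 CPM in UCP1 KO and 26.2, 29.9 and 36.0 CPM in dKO, against 39.0, 34.0, 32.4, 45.1 and 33.7 CPM in FGF21 KO and 33.0, 37.7 and 42.2 CPM in WT. Over all libraries the ranges overlapped slightly. Without the 12, Pcna was at 27.4, 27.4 and 27.4 CPM in UCP1 KO and 27.3, 27.5 and 26.2 CPM in dKO, against 34.0, 32.4 and 33.7 CPM in FGF21 KO and 33.0 and 33.7 CPM in WT, with no overlap.

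Without the 12 libraries, 26 members were higher and 2 lower in UCP1 KO than in WT, where 38.6% of all genes were called, 19.4% higher and 19.1% lower; this fit held 3 UCP1 KO, 3 dKO, 3 FGF21 KO and 2 WT libraries. Of the 25 mitosis genes 21 rose, the median over all 25 being 1.16 (log2), and 4 of the 5 transition genes rose, with a median of 0.81 over all 5. Of the 8 replication genes only Rrm2 rose, Mcm4 and Pcna fell, and the median was 0.09. Macrophage genes were not higher here: 8 of 15 were called lower in UCP1 KO than in WT, and their sums were 498 to 814 CPM in UCP1 KO, 725 to 826 in dKO, 967 to 1410 in FGF21 KO and 913 to 1280 in WT.

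Mki67 was called without the 12 libraries and not with them. In all libraries it ranged over 5.88, 9.67 and 20.4 CPM in UCP1 KO and 7.83, 13.8 and 21.8 CPM in dKO, against 14.0, 5.51, 4.55, 22.0 and 5.36 CPM in FGF21 KO and 4.55, 10.0 and 23.4 CPM in WT, overlapping throughout. In the 11 libraries low in lymphocyte genes it was at 9.15, 11.6 and 8.33 CPM in UCP1 KO and 10.3, 11.1 and 7.83 CPM in dKO, against 5.51, 4.55 and 5.36 CPM in FGF21 KO and 4.57 and 4.55 CPM in WT. The UCP1 KO and dKO libraries now lay above the others, with a log2 fold change of 1.16 ± 0.18 (adjusted p = 0.000766) for UCP1 KO against WT. Top2a was at 8.02, 8.63 and 6.10 CPM in UCP1 KO, against 3.15 and 2.56 CPM in WT (log2 fold change 1.48 ± 0.21, adjusted p = 0.000362). Cdk1 was at 3.50, 4.72 and 3.51 CPM in UCP1 KO, against 1.80 and 1.44 CPM in WT (1.34 ± 0.26, adjusted p = 0.00242). Both were separate between the genotypes. The largest change was in Ttk (1.98 ± 0.40, adjusted p = 0.00277), followed by Cenpf, Bub1 and Nuf2 of the kinetochore and checkpoint (1.81, 1.68 and 1.64). Aurkb, Ccnb1 and Plk1 changed by 1.32, 1.27 and 0.69, and Aurka, Kif2c, Ndc80 and Nusap1 were not called.

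In the same 11 libraries the replication genes did not move together. Rrm2 was at 4.47, 4.19 and 3.57 CPM in UCP1 KO and 3.92, 4.16 and 3.45 CPM in dKO, against 2.16, 1.58 and 2.46 CPM in FGF21 KO and 1.66 and 1.76 CPM in WT. It rose by 1.32 ± 0.20 (log2; adjusted p = 0.000654) in UCP1 KO against WT, without overlap. Mcm4 was at 8.33, 7.87 and 8.31 CPM in UCP1 KO, against 11.6 and 10.0 CPM in WT, and fell by 0.33 (adjusted p = 0.0318), while Pcna fell by 0.21 (adjusted p = 0.0246). Mcm5 was at 4.58, 4.10 and 4.80 CPM in UCP1 KO, against 3.98 and 3.63 CPM in WT, a difference of 0.31 that was not called (adjusted p = 0.0866), as was the 0.43 of Mcm2 (adjusted p = 0.116). E2f1 was at 4.88, 6.52 and 6.44 CPM in UCP1 KO, against 5.96 and 7.06 CPM in WT, and overlapped (-0.05, adjusted p = 0.843). Foxm1 rose by 0.81 (adjusted p = 0.0144), Ccna2 by 1.20 and Tyms by 0.40.

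**Figure D4:**
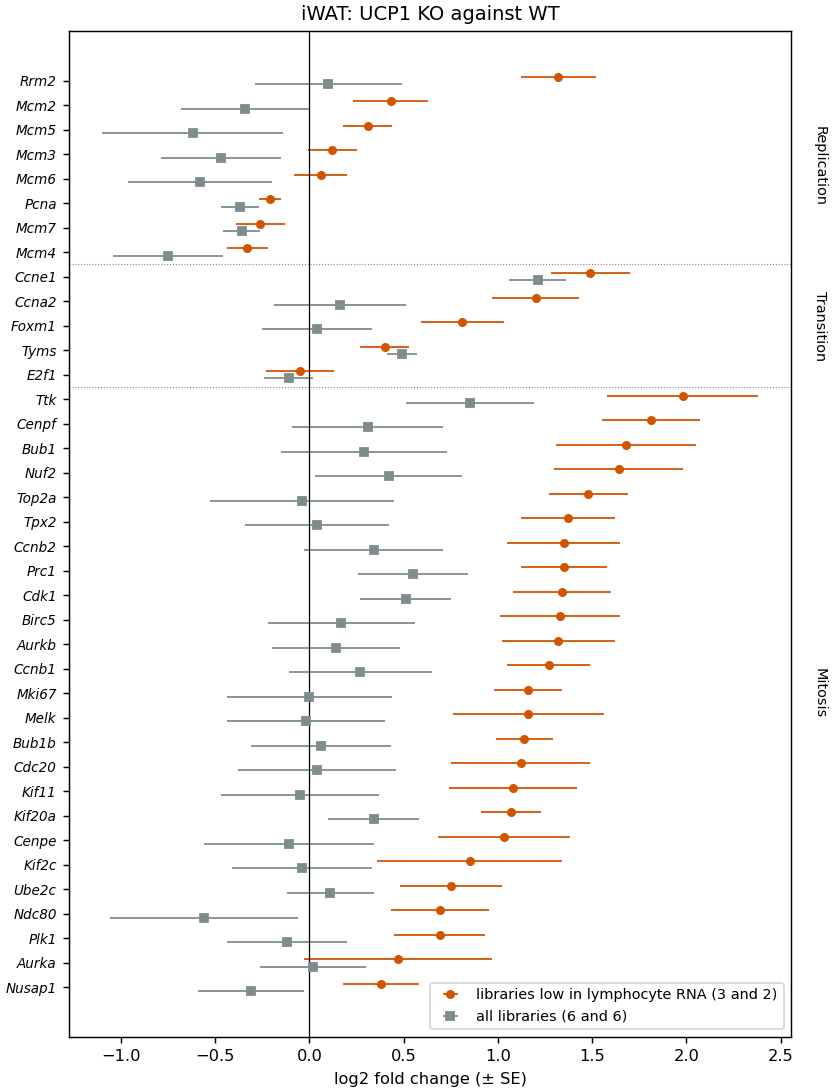
Log2 fold change ± SE of the 38 genes in iWAT, UCP1 KO against WT, from all 23 libraries and from the 11 low in lymphocyte genes. In the 11 libraries the mitosis genes lie to the right (median 1.16), while the replication genes scatter around 0 (median 0.09) with Rrm2 at 1.32.

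The second pair in iWAT gave a like split by group. Without the 12 libraries, dKO against FGF21 KO had 20 members higher and 3 lower (47.6% of all genes, 23% higher and 24.7% lower): 16 of 25 mitosis genes higher (median 0.66), 3 of 5 transition genes higher (median 0.69), and 1 of 8 replication genes higher and 3 lower (median -0.08). The 3 lower were Mcm4, Mcm7 and Pcna, which fell by 0.57, 0.32 and 0.22. In dKO against WT, 23 were higher and 2 lower (35% of all genes, 19% higher and 16% lower). The difference of medians between mitosis and replication was 0.70 for dKO against FGF21 KO over all libraries and 0.74 without the 12. For UCP1 KO against WT it was 0.48 over all libraries and 1.07 without the 12, and the spread between libraries, measured as in BAT, was 0.19. A fit with the lymphocyte level as a covariate, chosen after seeing the data, called 16 members higher and 3 lower in UCP1 KO against WT. That fit called 54.7% of all genes in either direction, and the members' share in either direction is not above this background. The share of all genes called higher was not counted for that fit. The 3 lower were Mcm4, Mcm7 and Pcna.

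FGF21 alone gave 0 calls in iWAT. In dKO against UCP1 KO and in FGF21 KO against WT, 0 of 38 members were called by edgeR (0.0358% and 0.00597% of all genes) and 0 by DESeq2, with 1 and 0 at an unadjusted p under 0.05. In dKO against UCP1 KO over all 23 libraries, 36 of 38 estimates were positive, with a median of 0.27, where those of BAT were mostly negative. In the 12 libraries high in lymphocyte genes the mitosis sums were 95.6 to 118 CPM in dKO and 41.9 to 114 in UCP1 KO. In the other 11 they were 55.4 to 72.4 CPM in dKO and 58.2 to 75.2 in UCP1 KO, and overlapped. With the lymphocyte covariate the Mki67 estimate was 0.31 ± 0.23 (adjusted p = 0.753). A difference in direction between the depots was not tested. The interaction of the 2 knockouts called 0 by either tool (0% of all genes), with 0 at an unadjusted p under 0.05. Its estimates, also over all 23 libraries, were positive for 34 of 38, with a median of 0.28.

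Among other pathway genes in the 11 libraries, 27 of 50 further mitosis genes were higher in UCP1 KO than in WT and 1 lower, with 7 and 1 over all libraries. All genes were 19.4% higher and 38.6% called in these 11 libraries, and 22.3% higher and 46.3% called over all, so the count over all libraries lies under the background. The largest named were Fam64a (3.11), the spindle protein Hmmr (2.16) and the centromere histone Cenpa (1.81), and Cks1b, a CDK subunit, fell by 0.85. Of 38 further replication genes 11 were higher and 1 lower, with 5 and 5 over all libraries. The histone chaperone Asf1b (1.73), Rrm1, the partner of Rrm2 (1.29), and Tk1 (1.38) rose, and the origin recognition gene Orc6 fell by 0.28. Of 29 genes of G1 entry and CDK inhibition 8 were higher and 6 lower, near the background. E2f2 (1.78), Gadd45a (1.81) and the phosphatase Cdc25a (0.65) rose, and Cdkn2c, Cdkn1b and Btg2, which restrain G1, fell by 1.26, 0.56 and 0.63.

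The effect of UCP1 loss was compared between the depots by the difference of UCP1 KO against WT in BAT and in iWAT, a test added after seeing the data. The fit took all libraries as independent, and the labels do not say whether both depots came from the same mice. Over 45 libraries, 31 of 38 members differed (52.6% of all genes), all with the log2 fold change higher in BAT than in iWAT. The median difference over all 38 was 1.45 (log2). The difference is signed: over all libraries Pcna, Mcm4 and Mcm7, for example, were called higher in BAT and lower in iWAT. On leaving out the libraries high in RNA of other tissue, Pcna was no longer called in BAT (0.09 ± 0.07, adjusted p = 0.249). Likewise Mcm7 was no longer called in iWAT (-0.26 ± 0.13, adjusted p = 0.135). Without the libraries high in RNA of other tissue, 26 libraries remained, where 45.7% of all genes were called. In them 13 members differed, again all with the log2 fold change higher in BAT. These were 7 of 8 replication genes (median 0.66), 5 of 25 mitosis genes and 1 of 5 transition genes. Mcm5 differed by 1.27 ± 0.22 (adjusted p = 5.77e-05), Mcm6 by 1.06 (adjusted p = 2.35e-05) and E2f1 by 1.22 ± 0.24 (adjusted p = 0.000219), whereas Rrm2 differed by 0.18 ± 0.38 and was not called. Among mitosis genes Cdk1 differed by 1.04 (adjusted p = 0.0467), and Mki67, at 0.87 ± 0.42, was not called (adjusted p = 0.0979). Ccne1 differed by 0.06 ± 0.20 over all libraries (adjusted p = 0.831) and by -0.18 ± 0.26 without the high ones (adjusted p = 0.613).

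In muscle many of the mitosis and transition genes had low counts, while the replication genes summed to 50.2 to 60.8 CPM in every library, and 29 of 38 members passed the filter on low counts. Aurkb, Ccnb1, Bub1, Kif2c, Cenpe, Ttk, Nuf2, Ndc80 and Melk did not, with at most 6 to 15 counts in any library. Of the 38, 5 were higher and 0 lower in UCP1 KO than in WT (5.89% of all genes higher, 12.3% in either direction). Mki67 ranged over 0.341, 0.955 and 1.51 CPM in UCP1 KO and 0.555, 0.875 and 1.20 CPM in dKO, against 0.273, 0.241, 0.648, 0.376 and 0.487 CPM in FGF21 KO and 0.103, 0.241 and 0.848 CPM in WT. The ranges overlapped and the log2 fold change of UCP1 KO against WT was 1.38 ± 0.40 (adjusted p = 0.0258). Ccne1 ranged over 0.294, 0.338 and 0.510 CPM in UCP1 KO, against 0.0448, 0.199 and 0.253 CPM in WT, with no overlap (1.01 ± 0.30, adjusted p = 0.0258). In dKO against FGF21 KO its difference was -0.06 ± 0.32 (adjusted p = 0.939). The others were Ccna2 (0.81 ± 0.22, adjusted p = 0.0175), the spindle kinesin Kif11 (0.73 ± 0.19, adjusted p = 0.0131) and Rrm2 (0.45 ± 0.15, adjusted p = 0.0465). With those 2 genotypes alone, Mki67 (adjusted p = 0.101), Ccne1 (adjusted p = 0.0631) and Rrm2 (adjusted p = 0.0928) were not called, and Rrm2 was also lost with no filter (adjusted p = 0.0857) and with DESeq2 (adjusted p = 0.055). DESeq2 called Top2a higher as well (1.11 ± 0.40, adjusted p = 0.0427).

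In the other UCP1 pair of muscle, dKO against FGF21 KO, 3 were higher and 0 lower (3.63% of all genes higher, 7.76% in either direction): Prc1 (1.37 ± 0.42, adjusted p = 0.0417), Kif20a (0.79 ± 0.21, adjusted p = 0.0178) and Mcm3 (0.28 ± 0.08, adjusted p = 0.0247). With no filter Prc1 (adjusted p = 0.0535) and Mcm3 (adjusted p = 0.0563) were lost. DESeq2 called Mki67 (1.18 ± 0.40, adjusted p = 0.0398) and Top2a (1.25 ± 0.42, adjusted p = 0.0317) higher as well. With those 2 genotypes alone edgeR called Mki67 (1.21, adjusted p = 0.00352), Top2a (1.29, adjusted p = 0.00612) and Ube2c (0.98, adjusted p = 0.0431) higher. That fit also called Bub1b lower (-0.54, adjusted p = 0.0457). In dKO against WT, 6 were higher and 0 lower (4.85% of all genes higher, 10.3% in either direction): Cdk1 (1.50), Top2a (1.46), Mki67 (1.45), Cdc20 (0.79), Ccna2 (0.70) and Kif20a (0.61). With no filter Cdk1, Kif20a, Cdc20 and Ccna2 were lost (adjusted p = 0.0607 to 0.0739). Cdc20 was also lost with those 2 genotypes alone (adjusted p = 0.0628), and DESeq2 called Prc1 higher (1.13 ± 0.41, adjusted p = 0.0483). By edgeR and by DESeq2, 0 were called for dKO against UCP1 KO (0% of all genes, 3 members at an unadjusted p under 0.05), for FGF21 KO against WT (0.0198%, 1 member) and for the interaction (0%, 2 members). These counts are small and depend on single libraries: leaving out 1 at a time gave 3 to 9 members in UCP1 KO against WT, 1 to 5 in dKO against FGF21 KO and 0 to 7 in dKO against WT, with 0 without WT replicate 3. The shares of all genes called in those fits are not given here, so these ranges cannot be set against a background. The mitosis sums, led by Aurka, Tpx2 and Bub1b, overlapped, at 12.4 to 25.8 CPM in UCP1 KO, 17 to 24.3 in dKO, 16.2 to 21.4 in FGF21 KO and 17.7 to 21.3 in WT. The difference of medians between mitosis and replication was 0.46 for UCP1 KO against WT and 0.35 for dKO against FGF21 KO over the genes that passed the filter, and 0.38 and 0.36 with no filter, where the spread between libraries was 0.25. Of 9 satellite cell genes 2 were higher, and of 15 macrophage genes 3 were higher and 1 lower, in UCP1 KO than in WT. Further mitosis genes gave 2 higher and 1 lower of 34, with Kif23 and Cdca8 higher and Anln lower. Further replication genes gave 3 higher and 0 lower of 36 (Gmnn, Uhrf1 and Dnmt1), and G1 genes 4 higher and 1 lower of 29. These list counts are also for UCP1 KO against WT, where 5.89% of all genes were higher and 12.3% called in either direction. The counts of further mitosis and replication genes lie near or under that background.

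In the hypothalamus 33 of 38 genes passed the filter, and Aurkb, Ccnb1, Bub1, Kif2c and Ube2c did not, with at most 10 to 14 counts. The test called 0 members in any of the 6 comparisons by edgeR or DESeq2. The members at an unadjusted p under 0.05, beside the share of all genes called, were 2 (0.0555%) for UCP1 KO against WT, 0 (0.0555%) for dKO against FGF21 KO, 1 (0.00555%) for FGF21 KO against WT, 0 (0.0111%) for dKO against UCP1 KO, 2 (0.0555%) for dKO against WT and 0 (0%) for the interaction. Ccne1 ranged over 12.0, 12.9 and 13.4 CPM in UCP1 KO and 11.4, 12.6, 13.0, 13.2 and 11.5 CPM in the dKO libraries, against 12.7, 12.7, 12.7, 10.5 and 10.5 CPM in FGF21 KO and 10.9, 12.1 and 13.3 CPM in WT. Mki67 ranged over 0.365, 0.443 and 0.577 CPM in UCP1 KO, against 0.336, 0.479 and 0.873 CPM in WT. Both genes overlapped between all genotypes. The difference of medians between mitosis and replication was -0.12 for UCP1 KO against WT and 0.03 for dKO against FGF21 KO over the genes that passed, where the spread between libraries was 0.09.

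**Figure D5:**
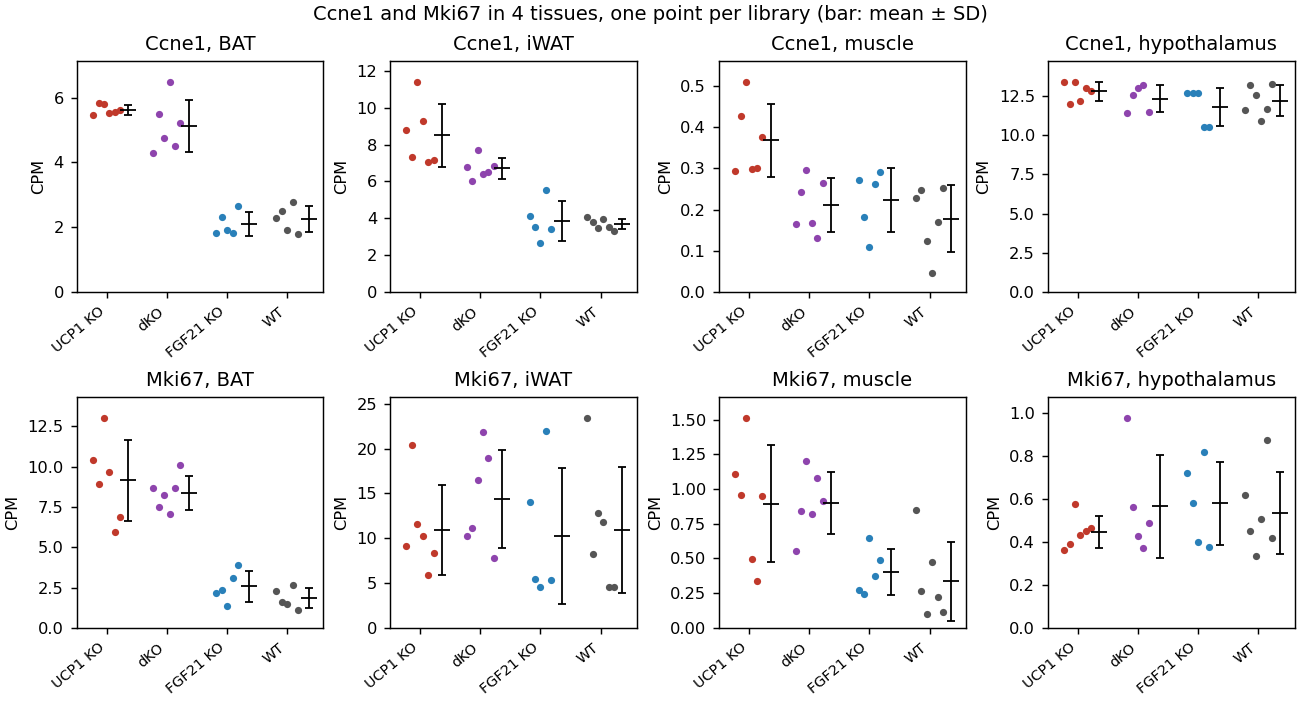
CPM of Ccne1 and Mki67 in each library of the 4 tissues, in the order UCP1 KO, dKO, FGF21 KO and WT, with a bar for the mean ± SD. Ccne1 separates UCP1 KO from WT in BAT (5.46 to 5.82 against 1.80 to 2.76 CPM), iWAT and muscle, and the genotypes overlap in the hypothalamus.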

How the data were processed

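RNA of 90 samples was extracted with Qiazol and poly(A) RNA was made into stranded TruSeq libraries, read from both ends over 100 bases, per the labels' protocols. The authors aligned reads with STAR to mm10 and counted them with HTSeq, per the submitters' processing notes; their versions were not found in those notes. The deposited values are whole-number read counts per gene, with no normalization by the authors. Each file held 32765 rows; 66 second rows of a repeated name were summed, and 2 rows naming no gene (at most 0.22% of counts) were left out, which gave 32697 genes. Library totals were 34819695 to 57287400 counts for BAT, 36440455 to 54076026 for iWAT, 18067899 to 60972172 for muscle, and 35496151 to 69886357 for hypothalamus.

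Each tissue was fitted separately over its 4 genotypes with edgeR 4.0.16 (filterByExpr, TMM, robust quasi-likelihood F test) in R 4.3.3, with p-values adjusted by Benjamini-Hochberg over the genes passing the filter (BAT 16032, iWAT 16751, muscle 15120, hypothalamus 18020). The biological coefficient of variation was 0.257 (BAT), 0.388 (iWAT), 0.101 (muscle) and 0.093 (hypothalamus). CPM values use TMM library sizes; CPM per kilobase divides by exon length. Mitosis and replication genes were compared by the difference of their median log2 fold changes; the spread beside it is the standard deviation within genotypes of their difference in mean log2(CPM + 0.1) per library. Replicate libraries all differed beyond counting noise (chi-square per degree of freedom 3.63 to 713). The fit was also run on data simulated from the means and dispersions of these libraries, and the result of that check is not given here. Alternatives were relative log expression scaling, no count filter, DESeq2 1.42.0, the compared genotypes alone, leaving out each library, and leaving out libraries with RNA of other tissue (mean log2 CPM over 7 for muscle fibre genes in BAT, 2 for lymphocyte genes in iWAT and 3 for choroid plexus genes in hypothalamus); a lymphocyte covariate and the BAT minus iWAT difference were added after seeing the data. The members, gene lists and thresholds were chosen with earlier results of these data known. Named genes were 13 fixed members, and in each tissue and comparison up to 4 called members with the largest and 4 with the smallest change, members called against the majority or failing the filter, and up to 3 called genes of each pathway list and direction by p; the remaining members are given by role. Promoters came from RefSeq (GRCm38.p6). Figures were drawn with matplotlib 3.10.9.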

Additional observations from a re-analysis of the deposited data

Results flagged for a closer look

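Single libraries that lay far from the rest of their genotype (Dixon's test on the gap to the nearest value) were found in 17 of 256 groups of values, and chance flags about 1 in 20. In iWAT, UCP1 KO replicate 2, 1 of the libraries high in lymphocyte genes, had a summed replication level of 148 CPM, next to 97.9 CPM in the nearest UCP1 KO library. The same library had 12.8 CPM of Mcm2, 13.0 CPM of Mcm5, 2.34 CPM of Plk1, 6.80 CPM of Rrm2 and 16.0 CPM of Top2a, where the nearest values were 7.19, 4.84, 1.57, 4.47 and 8.63 CPM. In BAT, FGF21 KO replicate 5, which also had the highest macrophage sum of its genotype, had 1.55 CPM of Foxm1 and 2.47 CPM of Rrm2, next to 1.01 and 1.50 CPM. UCP1 KO replicate 3 of BAT had 4.01 CPM of Foxm1, next to 3.03 CPM, and WT replicate 4 of BAT had 0.976 CPM of Cdk1, next to 0.557 CPM.

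In muscle the summed replication level was 60.8 CPM in UCP1 KO replicate 5 (nearest 56.5), 51.0 CPM in dKO replicate 4 (nearest 55.5) and 55.9 CPM in WT replicate 3 (nearest 52.3). The same dKO library had 9.22 CPM of Mcm2, under the nearest 11.7 CPM, and WT replicate 1 had 0.289 CPM of Ccnb1, next to 0.0689 CPM. In the hypothalamus, UCP1 KO replicate 3 had a summed transition level of 28.6 CPM (nearest 26.4) and dKO replicate 2 had 0.374 CPM of Cdk1 (nearest 0.206).

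The change of UCP1 KO against WT differed between BAT and iWAT, by the test of the difference, for 31 of 38 members over all libraries (52.6% of all genes). Without the libraries high in RNA of other tissue it differed for 13 (45.7% of all genes), under the background of calls in either direction. All 13 differences were positive, and the share of all genes called in that direction was not counted. The lymphocyte RNA of iWAT and the macrophage RNA of BAT moved with genotype or library in these comparisons, and their part in the difference was not tested.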

How the results depend on the processing

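Under all alternatives run, the called members of BAT gave 1026 values for UCP1 KO against WT, of which 1018 stayed called in the same direction, and 945 for dKO against WT, all called. Most values in these counts, in every tissue, come from fits that left out 1 library. Some of those libraries were of a genotype outside the compared pair, so both compared groups stayed whole. For dKO against FGF21 KO of BAT, 18 of 945 values were no longer called. In iWAT, calls were lost in 26 of 174 values for UCP1 KO against WT, 43 of 232 for dKO against FGF21 KO and 34 of 232 for dKO against WT. In muscle the same pairs lost 25 of 135, 15 of 81 and 47 of 161. Called members had 0 reversals in any tissue. In BAT, dKO against UCP1 KO gave 2 members by DESeq2 (4.61% of all genes) and 0 to 1 on leaving out 1 library. In iWAT, leaving out the libraries high in lymphocyte RNA gave 28 members called for UCP1 KO against WT, 23 for dKO against FGF21 KO and 25 for dKO against WT, and the lymphocyte covariate gave 19, 20 and 27 (54.7%, 50.5% and 47% of all genes), of which 19 and 20 are near the background; dKO against WT gave 5 with those genotypes alone (40.5% of all genes), under the background. The difference of mitosis and replication medians of UCP1 KO against WT was 1.07 without those libraries, 0.45 to 0.69 in iWAT and 0.88 to 1.24 in BAT on leaving out 1 library. Leaving out 1 library gave 4 to 8 members in iWAT for dKO against FGF21 KO, with 4 without WT replicate 3 or FGF21 KO replicate 2 and 5 without dKO replicate 2 or 3 or FGF21 KO replicate 3 or 5. For dKO against WT it gave 4 to 8, with 4 without WT replicate 2 and 5 without dKO replicate 5 or WT replicate 3, 5 or 6.

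In muscle, UCP1 KO against WT gave 2 members with those genotypes alone and 3 to 9 on leaving out 1 library (3 without UCP1 KO replicate 1 or 3 or WT replicate 2, 3, 4 or 5; 9 without UCP1 KO replicate 4; 8 without WT replicate 1). For dKO against FGF21 KO it gave 1 with no filter, 5 by DESeq2, 7 with those genotypes alone and 1 to 5 on leaving out 1 library (1 without dKO replicate 5 or FGF21 KO replicate 2, 3 or 5; 5 without UCP1 KO replicate 5). The 7 include Bub1b, called lower (-0.54 ± 0.17, adjusted p = 0.0457). For dKO against WT it gave 2 with no filter and 0 to 7 on leaving out 1 library (0 without WT replicate 3, 1 without dKO replicate 6 or WT replicate 2, 2 without WT replicate 4 or 5, 3 without WT replicate 6). The shares of all genes called are not given for the muscle fits of this paragraph or for the fits that leave out 1 library. Those counts therefore cannot be set against a background. The cause of these shifts was not tested. Low counts limit many mitosis genes of muscle and hypothalamus, and the iWAT fit without lymphocyte-high libraries has only 2 WT libraries. No paired analysis was possible because the labels carry no replicate numbers that the genotypes share.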
